A study of Homo sapiens with 6 samples.

Results

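The ZNF genes on autosomes other than chromosome 19 are a scattered set of zinc finger genes, and 172 of the 11584 genes read in this array table belong to it. The genes were taken by symbol and position, with no measured value in that choice. The rule asked for a current symbol of ZNF followed by a number, and a position on an autosome other than 19 in the annotation. Each gene was read by 1 probe set, the one with the highest mean over the 6 arrays. The cells were HEK293 T-REx Flp-In, an embryonic kidney line, and their RNA was hybridised to U133 Plus 2.0 arrays from Affymetrix, which read each transcript with short oligonucleotide probes. All 3 groups carried the same stably inserted, doxycycline-inducible LIN28B gene with a FLAG/HA tag. The mock not induced group was mock transfected with the transgene off, the mock induced group was mock transfected with the transgene on (doxycycline at 250 ng/ml per the labels' protocols), and the knockdown group received siRNA against LIN28B with the transgene off. Each group had 2 arrays. Whether the 2 replicates were separate cultures is not in the labels, so each p-value measures array-to-array spread that may be technical alone. The labels name no siRNA with another target, so transfection of any siRNA and depletion of LIN28B cannot be told apart, and they do not say whether the line is 1 clone.

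Zinc fingers of the C2H2 type are short loops held by a zinc ion, and a row of them reads DNA, and in some proteins RNA. Many ZNF proteins carry a KRAB domain that calls in TRIM28, the scaffold of a silencing complex that places methyl marks on histone H3 and keeps transposable elements off. The largest crowd of such genes lies on chromosome 19, while those elsewhere sit alone or in smaller neighbourhoods and include old, conserved regulators with other roles in development, RNA handling and chromatin complexes. LIN28B binds RNA: it keeps let-7 microRNA precursors from being processed, and it also binds many mRNAs.

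All values are the deposited log2 values of a probe set, so a difference of 1 is a doubling, and levels of different probe sets are not compared. LIN28B read 10.02 and 9.85 on the mock not induced arrays, 10.15 and 10.11 on the mock induced arrays and 7.51 and 7.53 on the knockdown arrays, lower in the latter by a log2 fold change of -2.42. The induced arrays were 0.19 above the not induced ones, which was not called (limma adjusted p = 0.999), and which part of the mRNA the probe set reads was not looked at. Of 9 genes chosen as markers of HEK293 cells, 5 were in the table, at 7.27 to 12.7. Their levels were not the same in every group: KRT8 and INSM1 were called higher and VIM and NEFL lower in the knockdown. The part of this in the results below was not tested. Of the blood markers 2 of 6 were in the table, at 4.93 to 5.38, and of the fibroblast markers 1 of 6, at 5.96 to 6.28, and none of these was called.

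In the knockdown, 22 ZNF genes rose and 13 fell against the mock not induced arrays, and the other 137 did not pass the test. The largest rise was 2.60-fold, in ZNF879, and the largest fall 2.06-fold, in ZNF385B. Calls required an adjusted p below 0.05 in limma, with the fit and the adjustment made over all 11584 genes. The 35 called genes are 20.3% of the set, below the 28.0% called among all genes. The difference lay mostly among the falls: 7.56% of the set fell against 14.5% of all genes, while 12.8% rose against 13.5% of all genes. The median log2 fold change of the 172 genes was 0.07, with quartiles at -0.14 and 0.30, against a median of 0.01 and quartiles of -0.21 and 0.21 over all genes. Above 0 lay 108 of the 172 genes, or 62.8%, against 50.8% of all genes. These shares are descriptions, and no test compares the set with other genes. By 2-fold or more, 5 genes rose and 1 fell, or 2.91% and 0.581% of the set, against 0.906% and 1.29% of all genes. Among the rises ZNF502, and the fall ZNF385B, are in the table only through the arrays where they are high, as described below.

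The median difference of the set was above 0 for each pairing of 1 knockdown array with 1 mock not induced array, from 0.03 to 0.09. For the same 4 pairs the median over all genes lay between -6.51e-05 and 0.008. Both knockdown arrays lay above all 4 mock arrays for 56 of the 172 genes, which is 32.6% against 27.1% of all genes. For 31 genes, 18.0% against 26.0% of all genes, both lay below all 4 mock arrays, and for the other 85 the arrays overlapped. Each of the 35 called genes had its knockdown arrays apart from the mock not induced arrays. With so few arrays in a group a called gene has little room for overlap, so this follows largely from the call and is no separate evidence.

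**Figure D1:**
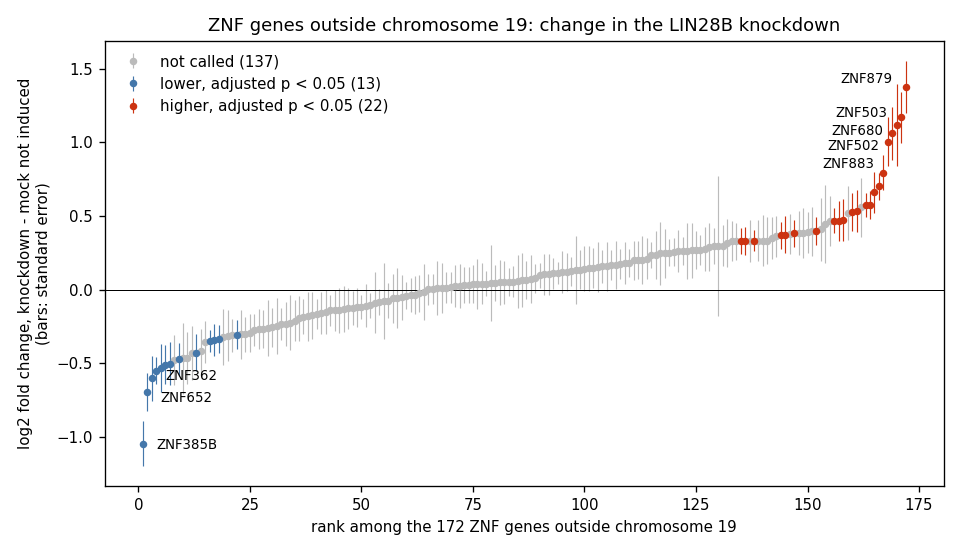
Log2 fold change (vertical axis, knockdown minus mock not induced) of the 172 ZNF genes outside chromosome 19, ordered by size (horizontal axis, rank), with bars for the standard error and colour for genes called higher, lower or neither. The 22 rises reach 1.38 in ZNF879 and the 13 falls reach -1.04 in ZNF385B, and the points above 0 (108) outnumber those below.

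The 5 genes that rose by 2-fold or more were ZNF879, ZNF503, ZNF680, ZNF502 and ZNF883. ZNF879, which carries a KRAB domain, read 5.30 and 5.21 on the mock not induced arrays, 5.29 and 5.77 on the mock induced arrays and 6.63 and 6.64 on the knockdown arrays. Both knockdown arrays stood above all 4 mock arrays. Over the not induced ones the rise was 1.38 on the log2 scale (SE 0.18, with a limma adjusted p of 0.000523 and n = 2 arrays per group). ZNF503, a repressor of the NET family that acts in the embryo's limbs and brain, read 9.47 and 10.10 not induced, 9.52 and 9.87 induced and 10.92 and 10.98 in the knockdown. Its knockdown arrays were close together and clear of the mock arrays, which differed by more among themselves. The rise was 2.25-fold (log2 1.17, SE 0.17, limma adjusted p = 0.0011).

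ZNF502 read 4.62 and 4.56 not induced, 4.62 and 4.42 induced and 5.55 and 5.75 in the knockdown. Nearly every probe set of the table lay above 5 on at least 2 arrays, and ZNF502 did so only on the knockdown arrays, where it is high. It had to differ to be there, so its call and its log2 fold change of 1.06 from near the low end of the table are a description. ZNF883 read 5.92 and 5.64 not induced, 5.87 and 5.52 induced and 6.73 and 6.84 in the knockdown, a rise of 2.01-fold with no overlap. Less even was ZNF680, a KRAB gene, at 6.20 and 5.15 not induced, 6.11 and 6.07 induced and 6.61 and 6.97 in the knockdown. Its log2 fold change was 1.12, with an SE of 0.28 and a limma adjusted p of 0.0153. It came to 0.59 without the low mock array, mock not induced replicate 2, and the call was lost without knockdown replicate 2. Its probe set is of a kind that can also read related transcripts.

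The next rises were below 2-fold. ZNF232, a SCAN domain gene, read 8.30 and 8.09 not induced, 8.49 and 8.20 induced and 9.07 and 8.92 in the knockdown, a log2 rise of 0.80. ZNF280B, a relative of the fly insulator protein suppressor of hairy wing, read 8.24 and 8.04 not induced, 8.18 on both induced arrays and 8.85 and 8.84 in the knockdown, a rise of 0.70. In both genes the knockdown arrays stood apart from every mock array. ZNF92, a KRAB gene, rose by 0.66, with 7.44 and 7.16 not induced, 7.40 and 7.50 induced and 7.79 and 8.13 in the knockdown. The oncogene ZNF217, a DNA-binding subunit of corepressor complexes that is amplified in breast cancer, read 7.59 and 7.66 not induced, 7.52 and 7.51 induced and 8.28 and 8.13 in the knockdown. Its rise was 0.58 (SE 0.10, limma adjusted p = 0.00206), and the rise of ZNF622, described with the RNA-related genes below, was of the same size.

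The other 12 rises ran from 0.54 down to 0.33 on the log2 scale. ZNF10, whose KRAB domain is the one used in many CRISPR repressors, rose by 0.54 and ZNF251 by 0.53. ZNF251 was the only one of the 22 rises whose induced arrays, at 6.99 and 6.70, lay between its not induced arrays (6.47 and 6.57) and its knockdown arrays (7.03 and 7.06) with no overlap. The rest, named after their values were seen, were ZNF33B and ZNF513 and ZNF239 (0.47 each), ZNF84 (0.40), ZNF200 (0.38), ZNF215 and ZNF75A (0.37 each), and ZNF281, ZNF189 and ZNF830 (0.33 each). ZNF239, known as MOK2 and able to bind both DNA and RNA, had close replicates: 8.07 on both not induced arrays and 8.54 and 8.53 in the knockdown, with 7.93 and 8.04 on the induced arrays. ZNF281, a regulator of pluripotency genes, read 9.31 and 9.28 not induced, 9.35 and 9.23 induced and 9.64 and 9.61 in the knockdown.

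Of the 13 falls, 1 reached 2-fold. ZNF385B, a relative of the p53 partner ZNF385A, read 5.66 and 5.78 not induced, 5.93 and 5.86 induced and 4.65 and 4.71 in the knockdown. All 4 mock arrays were above both knockdown arrays, with a log2 fold change of -1.04 (SE 0.15 and limma adjusted p = 0.00107). Its knockdown mean of 4.68 is near the low end of the table, and it lay above 5 on the mock arrays only, so its entry in the table rests on the groups where it is high.

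ZNF652, a repressor that works with CBFA2T3, read 7.09 and 7.14 not induced, 6.95 and 7.0 induced and 6.28 and 6.56 in the knockdown, and fell by 0.69. ZNF362, a relative of ZNF384, read 7.33 and 7.69 not induced, 7.33 and 7.57 induced and 6.76 and 7.06 in the knockdown, and fell by 0.60. ZNF639, from the amplified 3q region of squamous tumours, read 8.78 and 8.60 not induced, 8.76 and 8.72 induced and 8.12 and 8.16 in the knockdown. It fell by 0.55 (SE 0.089, limma adjusted p = 0.00177), and like ZNF367 and ZNF276 it is read by a probe set that can share related transcripts. ZNF367 was the only called gene that overlapped the induced arrays: it read 7.95 and 7.90 not induced, 7.95 and 7.50 induced and 7.19 and 7.59 in the knockdown.

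Further down, ZNF367 fell by 0.53, ZNF664 by 0.51, ZNF276 by 0.50, ZNF641 by 0.43, ZNF511 by 0.35 and ZNF605 by 0.30. ZNF451, ZNF24 and ZNF706 are taken up with their roles below. The called genes nearest to it were ZNF24 (limma adjusted p = 0.0446), ZNF605 (0.0479) and ZNF215 (0.0498). Just outside were ZNF717 (log2 fold change 0.52, adjusted p = 0.059), ZNF786 (0.38, 0.0597) and ZNF12 (0.39, 0.0619).

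**Figure D2:**
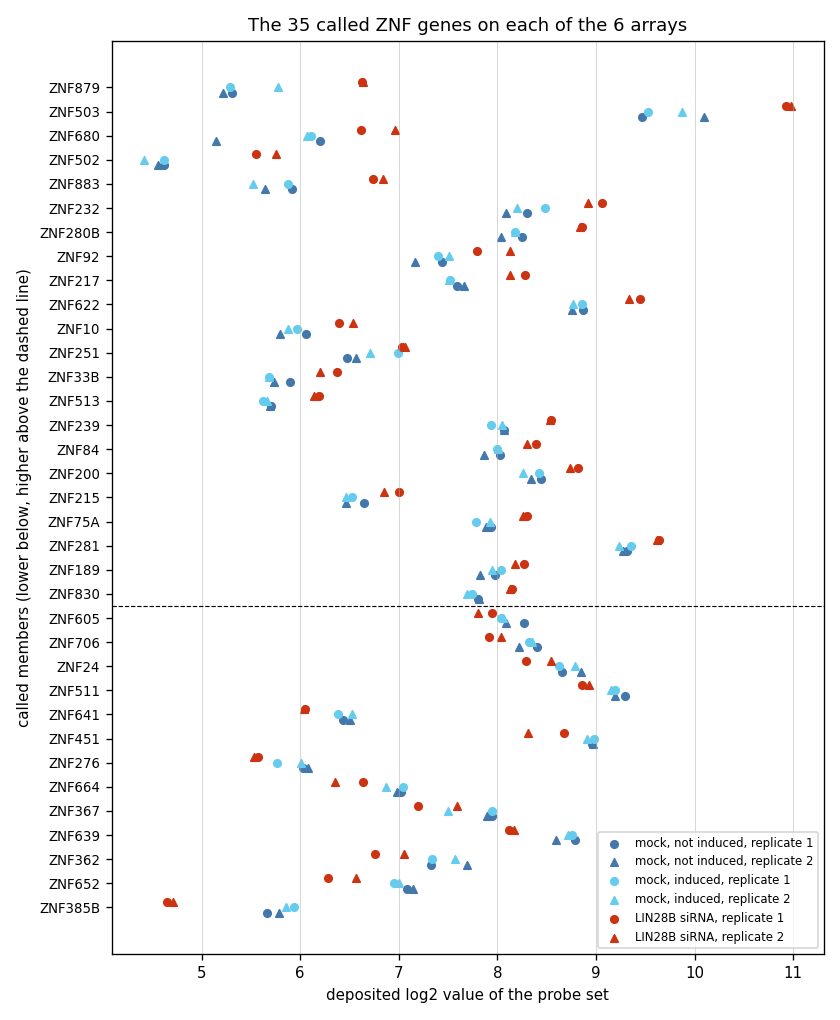
Deposited log2 value (horizontal axis) of each of the 35 called ZNF genes (vertical axis, falls below and rises above the dashed line) on each of the 6 arrays, with colour for the group and shape for the replicate. The knockdown symbols are apart from the mock not induced symbols in all 35 genes, which follows largely from the call. The mock induced symbols lie with the not induced ones in most, ZNF251 and ZNF367 being among the exceptions.

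Many of the calls were lost when 1 array was left out, which leaves 1 array in that group. Of all genes, too, a smaller share was called when a knockdown array was left out. A lost call need not mean a changed value: ZNF276 lost its call, but its log2 fold change stayed between -0.53 and -0.48. Of the 35, 12 were still called when any 1 of the 4 compared arrays was left out: the rises of ZNF879, ZNF503, ZNF502, ZNF883, ZNF232, ZNF280B, ZNF217, ZNF622 and ZNF239 and the falls of ZNF385B, ZNF652 and ZNF639. The same genes were called in every alternative fit that held them. Of these, ZNF502 is in the table only through the knockdown arrays and ZNF385B only through the mock arrays. Each is high there, so both calls are a description. The other 23 lost the call in at least 1 of the 4, with limma adjusted p from 0.0504 to 0.296 in the leave-outs that lost a call. More of the 35 calls were lost without 1 of the knockdown arrays than without 1 of the mock not induced arrays. The values of 3 falls and 1 rise moved by over 1.5 times: ZNF367 to -0.33 and ZNF24 to -0.21 without knockdown replicate 1, ZNF451 to -0.29 without knockdown replicate 2, and ZNF680 as given above. With each array centred on its own median 30 rose and 11 fell, so that 23.8% of the set was called against 29.0% of all genes (15.8% higher and 13.1% lower). With all 4 mock arrays as the control 36 rose and 19 fell, 32.0% of the set against 37.0% of all genes.

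RefSeq windows of 300 bases, 250 before and 50 after the transcription start, were at hand for 139 of the 172 genes. The stretches of 120 bases just before the start are shown for 6 genes. These are the 3 that rose most and the 3 that fell most of those called in every fit. Leaving out 1 array did not end these calls, with the limits given above for ZNF502 and ZNF385B. The stretches are read from GRCh38.p14, 5′ to 3′ on the strand of the gene, and capitals mark exact matches to the motifs searched. Where a gene has more than 1 start, as 40 of the 139 do, the farthest upstream was used. The rises were ZNF879 at chr5:179023684-179023803 (plus strand), ZNF503 at chr10:75401917-75402036 (minus strand) and ZNF502 at chr3:44712540-44712659 (plus strand).
ZNF879: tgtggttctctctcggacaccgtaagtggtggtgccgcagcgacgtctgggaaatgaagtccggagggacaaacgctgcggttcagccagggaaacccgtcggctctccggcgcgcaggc
ZNF503: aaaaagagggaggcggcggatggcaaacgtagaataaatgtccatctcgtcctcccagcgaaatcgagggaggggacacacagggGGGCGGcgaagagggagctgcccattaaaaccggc
ZNF502: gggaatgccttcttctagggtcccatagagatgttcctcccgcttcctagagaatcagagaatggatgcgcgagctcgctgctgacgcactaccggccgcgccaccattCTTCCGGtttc
The falls were ZNF385B at chr2:179861613-179861732 (minus strand), ZNF652 at chr17:49362474-49362593 (minus strand) and ZNF639 at chr3:179322756-179322875 (plus strand).
ZNF385B: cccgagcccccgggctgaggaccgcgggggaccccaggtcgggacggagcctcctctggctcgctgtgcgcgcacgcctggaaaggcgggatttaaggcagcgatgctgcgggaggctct
ZNF652: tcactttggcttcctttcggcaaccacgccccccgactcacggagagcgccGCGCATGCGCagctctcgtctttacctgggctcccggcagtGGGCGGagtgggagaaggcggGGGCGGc
ZNF639: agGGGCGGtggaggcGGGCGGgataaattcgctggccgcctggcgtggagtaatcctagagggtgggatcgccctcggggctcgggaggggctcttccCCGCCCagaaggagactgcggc
These stretches had little in common by the motifs searched. ZNF502 held 1 ETS match and ZNF503 1 GC box, ZNF652 held 2 GC boxes and an NRF1 match, ZNF639 held 3 GC boxes, and ZNF879 and ZNF385B held none of the 9 motifs.

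Of the 9 motifs, the one whose share was furthest in percentage points from that of all genes in the table was ETS, CCGGAAG on either strand. It was in 53 of the 139 windows, or 38.1%, against 19.2% of the 9476 windows of all genes in the table and 10.6% of all 27305 RefSeq windows of this length. The windows of the ZNF genes on chromosome 19 held it in 42.5% of 127. By response, 7 of 20 windows of genes that rose (35%), 3 of 12 of genes that fell (25%) and 40.2% of 107 of genes not called held it. The GC box GGGCGG was in 11 of the 12 windows of genes that fell, in 12 of the 20 of genes that rose (60%) and in 61.7% of those not called, against 70.7% of all genes in the table. CCAAT was in 3 of 12, 10 of 20 and 43.0% of the same groups, against 37.0% of all genes in the table. The TATA box TATAAA was in 2.88% of the windows of the set, against 5.26% of the windows of the table's genes. The other motifs searched, both strands alike, were the CREB site TGACGTCA (5.76% of the set), then the NRF1 site GCGCATGCG (7.19%), then the YY1 site AAGATGGCG (2.88%), then the E-box CACGTG (6.47%) and last the ZNF143 site ACTACAATT (2.16%). The NRF1 site reads nearly the same on both strands, so 1 place can match both ways. A match is a run of letters in a window and says nothing of binding, and none of these differences between groups was tested.

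The set holds 10 genes with known roles in RNA or ribosomes, with a median log2 fold change of 0.03. Of these 1 rose and 1 fell, or 20% called against 28.0% of all genes. ZNF622, the human form of a factor that acts late in maturation of the large ribosomal subunit, read 8.87 and 8.75 not induced, 8.85 and 8.76 induced and 9.44 and 9.33 in the knockdown. This is a rise of 0.58 (SE 0.082, limma adjusted p = 0.000906) with all 4 mock arrays below both knockdown arrays. ZNF706, a very small zinc finger protein, read 8.41 and 8.22 not induced, 8.32 and 8.35 induced and 7.92 and 8.04 in the knockdown, and fell by 0.34. ZNF598, the ubiquitin ligase that marks collided ribosomes, had a log2 fold change of 0.05 with a 95% interval of -0.23 to 0.32, and ZNF593, a factor of ribosome assembly, had 0.11 (-0.05 to 0.28). ZNF346, which binds double-stranded RNA, was at 0.01, ZNF326, a link between RNA polymerase and splicing, at -0.14, and ZNF638, a partner of the HUSH silencing complex on unintegrated retroviral DNA, at 0.12. ZNF106 (0.05), ZNF207 (-0.04), which acts in mitosis, and ZNF330 (-0.12) were also not called.

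Of 12 genes tied to cofactor complexes, 1 rose, ZNF217 above, and 2 fell, or 25% called against 28.0% of all genes. ZNF639 is one of the falls. The other is ZNF451, a SUMO ligase, at 8.96 and 8.97 not induced, 8.98 and 8.91 induced and 8.67 and 8.31 in the knockdown, a fall of 0.47 (limma adjusted p = 0.011). The knockdown arrays were further from each other than any of the mock arrays. ZNF592, ZNF687 and ZNF532, which work together with ZMYND8, had log2 fold changes of 0.24, 0.40 and 0.45. The partners of the methyltransferase G9a, ZNF644, ZNF518A and ZNF518B, had -0.18, 0.33 and 0.26. ZNF516 (-0.14), ZNF827 (-0.13), which brings NuRD to telomeres, and ZNF462 (-0.26) did not pass either.

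Among 10 regulators that bind promoters or single loci, ZNF281 and ZNF10 rose and ZNF24 fell, or 30% called against 28.0% of all genes. ZNF24, a SCAN domain protein, read 8.66 and 8.85 not induced, 8.62 and 8.79 induced and 8.29 and 8.54 in the knockdown, a log2 fold change of -0.34 that is 1 of the 3 calls nearest the threshold. ZNF143, which drives small nuclear RNA promoters and anchors chromatin loops, had 0.27 (95% interval -0.02 to 0.56), and its relative ZNF76 had -0.03. ZNF148 (0.30), ZNF174 (0.33), ZNF335 (0.15), ZNF384 (-0.02) and ZNF202 (-0.16) were not called.

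Of 7 genes of development in the set, only ZNF503 was called, or 14.3% against 28.0% of all genes. Its relative ZNF703, a gene of luminal breast cancer, read 8.33 and 9.14 not induced, 8.82 and 8.94 induced and 9.35 and 9.24 in the knockdown. The log2 fold change of 0.56 was not called (limma adjusted p = 0.0623), and the knockdown arrays lay above all mock arrays while the not induced ones differed widely. ZNF521, a cofactor in stem and progenitor cells, had -0.46 (limma adjusted p = 0.0756), its paralog ZNF423 had 0.25 and ZNF385A had 0.47 (limma adjusted p = 0.0647). ZNF704 (-0.07) and ZNF292 (0.02) were not called either.

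A hand-written list of KRAB partner genes, drawn wider than the silencing complex that KRAB domains recruit, had 3 calls, none in TRIM28 or SETDB1. Of 24 such partner genes in the table, 1 rose and 2 fell, which is 12.5% called against 28.0% of all genes, and all 24 had log2 fold changes between -0.40 and 0.42. TRIM28, the scaffold itself, read 9.58 and 9.89 not induced, 9.64 and 9.75 induced and 9.79 and 9.63 in the knockdown, so the groups overlapped. Its log2 fold change was -0.03, with a 95% interval of -0.25 to 0.20. SETDB1, the histone methyltransferase, had 0.02, and the HP1 genes CBX1, CBX3 and CBX5 had -0.05, 0.07 and -0.06. ATF7IP2, a relative of SETDB1's cofactor ATF7IP, rose by 0.42, and TASOR, a HUSH subunit, and TRIM24 each fell by 0.40.

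The ZNF genes on chromosome 19 gave a different balance of calls under the same fit. Of 138, 42 rose and 3 fell, which is 30.4% and 2.17%, against 12.8% and 7.56% of the 172 genes elsewhere. Among the 42 rises, ZNF345 and ZNF418 owe their place in the table to the knockdown arrays alone, where they are high. Their calls are a description, as is that of ZNF502 among the 172. The median log2 fold change was 0.26 on chromosome 19, against 0.07 elsewhere. Both knockdown arrays were above all 4 mock arrays for 50.7% of the chromosome 19 genes and 32.6% of the others. Below all 4 lay 7.25% and 18.0%. The standard errors were alike, with medians of 0.141 and 0.138. The difference between the 2 groups of genes is described here and was not tested.

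**Figure D3:**
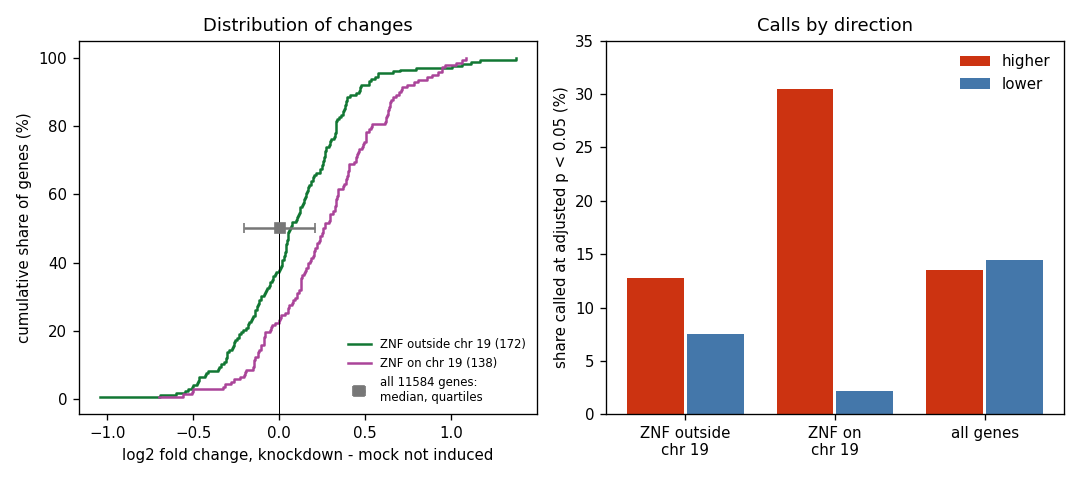
Left, cumulative share of genes (vertical axis, percent) by log2 fold change (horizontal axis, knockdown minus mock not induced) for the 172 ZNF genes outside chromosome 19 and the 138 on it, with a square and bar for the median and quartiles of all 11584 genes. Right, share called in each direction (percent): 12.8% higher and 7.56% lower outside chromosome 19, 30.4% and 2.17% on it, and 13.5% and 14.5% of all genes.

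The share of the set that was called differed with the signal of the probe set. Of the 29 genes with a mean log2 value of 8 or more over the 6 arrays, 10 rose and 6 fell, so 55.2% were called, against 41.5% of all genes at that level. Below 8 there were 143 genes, of which 12 rose and 7 fell, or 13.3% against 21.4% of all genes there. By steps of level, 13.6% of the genes under 6 were called, 14.5% of those from 6 to 7 and 11.4% of those from 7 to 8. The shares for all genes were 15.9%, 21.3% and 27.6%. The chromosome 19 genes had 26.3%, 29.8% and 39.4% in the same steps and 40% at 8 or more.

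**Figure D4:**
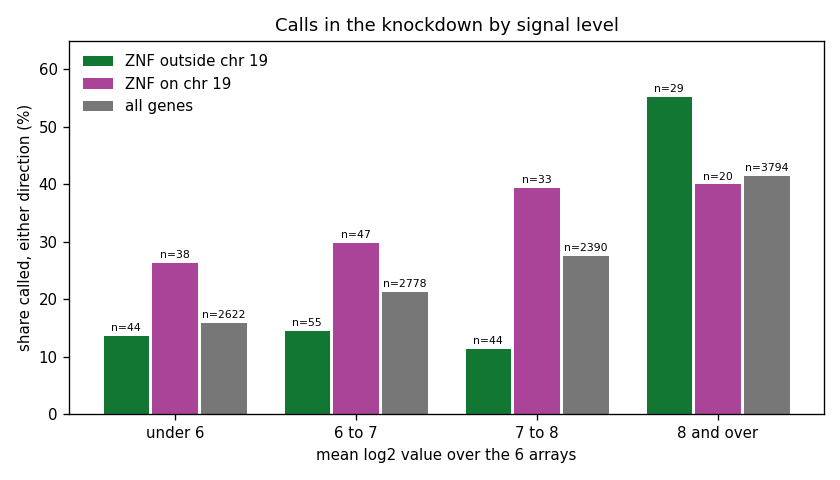
Share of genes called in either direction (vertical axis, percent) by mean log2 value over the 6 arrays (horizontal axis, 4 steps), for ZNF genes outside chromosome 19, ZNF genes on it and all genes. Outside chromosome 19 the share was 13.6%, 14.5%, 11.4% and 55.2% from the lowest step to the highest, and for all genes it was 15.9%, 21.3%, 27.6% and 41.5%.

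Away from chromosome 19 some of these genes still sit side by side. Joining neighbours no more than 500 kb apart gave 8 runs of at least 4 genes, which held 49 of the 172. Of these 49, 7 rose and 1 fell, where 13.5% of all genes rose and 14.5% fell. The other 123 were in no such run. Within runs, called and uncalled genes were mixed. In the run of ZNF605, ZNF26, ZNF84, ZNF10 and ZNF268 on chromosome 12, ZNF84 and ZNF10 rose and ZNF605 fell. In the run of ZNF680, ZNF107, ZNF138, ZNF273 and ZNF92 on chromosome 7, ZNF680 and ZNF92 rose while the lowest log2 fold change was -0.43, and the median was -0.05. ZNF200 and ZNF75A rose in the run of 5 on chromosome 16 that also holds ZNF205, ZNF213 and ZNF174.

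The longest runs held no call. On chromosome 16, 11 neighbours from ZNF48 to ZNF267 had log2 fold changes between -0.30 and 0.24, and on chromosome 7, 9 neighbours from ZNF786 to ZNF862 lay between -0.12 and 0.41. Chromosomes 7 and 16 hold the most genes of the set, 24 each, with 2 rises and no fall on the first and 2 rises and 1 fall on the second. Chromosome 12 had 2 rises and 3 falls among 10 genes, and chromosome 10 had 3 rises and 1 fall among 12. Of all genes 13.5% rose and 14.5% fell. With so few genes on each chromosome, no pattern by chromosome is read from these counts.

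**Figure D5:**
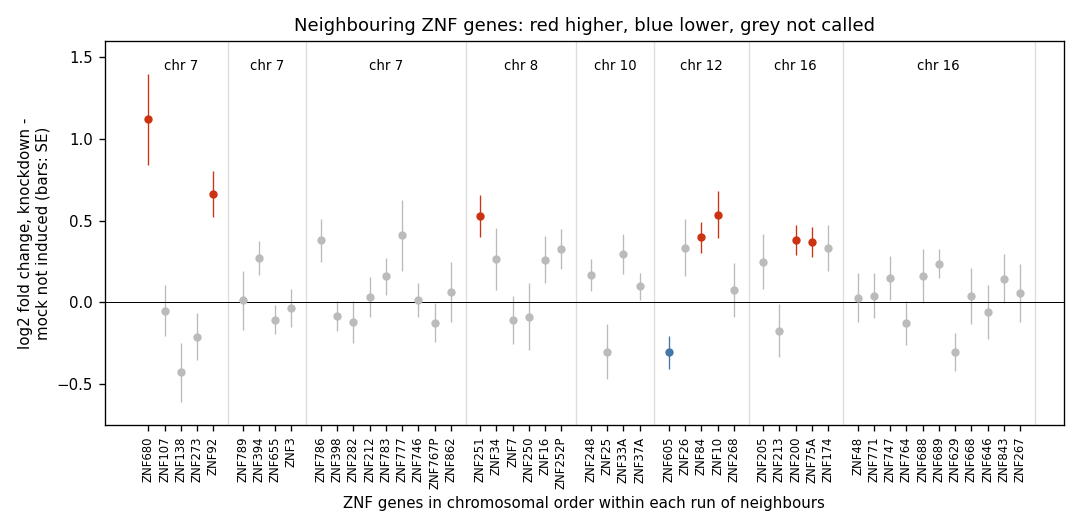
Log2 fold change (vertical axis, knockdown minus mock not induced) of the 49 ZNF genes that lie in runs of 4 or more neighbours, in chromosomal order within each of the 8 runs (horizontal axis), with bars for the standard error and colour for calls. The 7 rises and 1 fall are spread over 4 of the runs, and the 2 longest runs, of 11 and 9 genes, hold none.

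Induction of the tagged LIN28B gave no called change in the set. Against the mock not induced arrays 0 of the 172 genes passed limma's test, as did 0 of all 11584 genes (0% called). At an unadjusted p under 0.05 there were 6 genes of the set, or 3.49%, against 344 of all genes, or 2.97%. The median log2 difference, induced minus not induced, was -0.01. By smallest p, and not passing, the highest were ZNF646 (0.50), ZNF777 (0.51), ZNF251 (0.33), ZNF516 (0.32) and ZNF786 (0.30), and the lowest ZNF300 (-0.37), ZNF326 (-0.23), ZNF775 (-0.31), ZNF684 (-0.38) and ZNF518B (-0.18). ZNF300 read 7.62 on both not induced arrays, 7.31 and 7.19 induced and 7.43 and 7.26 in the knockdown. Its adjusted p in limma was 0.999, as for the others named. For ZNF503 the 95% interval of the induced minus not induced difference was -0.47 to 0.30, and for ZNF622 it was -0.18 to 0.18. The widest difference in the set, 0.82 in ZNF623, came with a single low array: it read 5.29 and 3.47 not induced, 5.11 and 5.28 induced and 4.32 and 5.03 in the knockdown.

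Set against the knockdown, the induced arrays were higher for 12 genes and lower for 26, or 38 genes called. These are 22.1% of the set against 28.4% of all genes, 6.98% higher against 14.5%, and 15.1% lower against 14.0%. This comparison uses the same knockdown arrays as the first, so it is no separate evidence. The highest in induced cells were ZNF385B (log2 1.22), ZNF639 (0.59), ZNF652 (0.55), ZNF646 (0.55) and ZNF362 (0.54). The lowest were ZNF503 (-1.25), ZNF502 (-1.14), ZNF879 (-1.11), ZNF883 (-1.09) and ZNF717 (-0.84). Here too ZNF385B is in the table only through the mock arrays and ZNF502 only through the knockdown arrays, where each is high. Their calls are a description. ZNF717 read 5.76 and 6.31 not induced, 5.71 on both induced arrays and 6.65 and 6.46 in the knockdown, so 1 high not induced array stood near the knockdown ones. ZNF646 read 5.72 and 5.87 not induced and 5.69 and 5.78 in the knockdown, below both induced arrays (6.49 and 6.08).

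Other families of zinc finger genes had calls too, some of them of both kinds and some of them rises only. They were counted by symbol. Of 34 genes with a symbol that starts with ZBTB and a number, the family that joins fingers to a BTB domain, 6 rose and 2 fell. That is 23.5% called against 28.0% of all genes. Of these 34, ZBTB8OS is an opposite-strand neighbour that is not of the family, and it was not called. The 34 had a median log2 fold change of 0.14. ZBTB10 (0.76) had the largest rise and ZBTB41 (-0.87) the largest fall. Of 12 ZSCAN genes and the antisense RNA ZSCAN16-AS1 1 rose, ZSCAN9 (0.63), and of 5 ZKSCAN genes 1 rose, ZKSCAN2 (0.44). The 13 genes named ZFP had 1 rise, ZFP36L1 (1.01), which binds AU-rich RNA with fingers of another type, and 1 fall, ZFP41 (-0.46). ZFP36L1 read 5.75 and 6.09 not induced and 6.44 and 7.42 in the knockdown, so its knockdown arrays differed widely. The shares called were 7.69% for ZSCAN symbols, 20% for ZKSCAN and 15.4% for ZFP, against 28.0% of all genes. The ZSCAN symbols had a median log2 fold change of 0.16 all the same. Both knockdown arrays lay above all 4 mock arrays for 53.8% of them, against 27.1% of all genes, and below for 15.4%, against 26.0%. The ZBTB, ZSCAN and ZFP counts include genes on chromosome 19.

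Of the 172 genes, 168 code for protein and 4 are transcribed pseudogenes, none of which was called: ZNF204P, ZNF252P, ZNF271P and ZNF767P. The 37 genes read by probe sets that can share related transcripts had 3 rises and 3 falls, and the other 135 had 19 rises and 10 falls. These are 16.2% and 21.5% called, against 28.0% of all genes. Agreement between probe sets could be seen for 2 genes. In ZNF322 both gave a log2 difference of 0.25, and in ZNF75A they gave 0.37 and 0.32. A further 113 genes of the same naming and position in RefSeq were not analysed here.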

How the data were processed

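RNA of 6 samples of 1 line, 2 per group, was read on 1-colour Affymetrix arrays. The deposited values are log2 per probe set, made by the authors with affy and GCRMA per the submitters' processing notes, with no version named. The base of the logarithm was taken as 2, the base GCRMA returns. The table holds 13008 probe sets, part of the array; 13007 lay above 5 on at least 2 arrays, so genes low everywhere were not analysed here, and how the probe sets were picked is unknown. Values ran from 2.59 to 14.3 and array medians from 7.126 to 7.177. The number of arrays limits the precision.

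Names came from the platform annotation, with symbols updated to RefSeq (GRCh38.p14): 11719 had 1 symbol, 609 several and 680 none. Of the 11584 genes, 11578 matched RefSeq. The filter (above 4 on 2 arrays) removed 0.

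The test was limma 3.58.1 (R 4.3.3), with lmFit and an intensity trend in eBayes, as 1 model of 3 groups over 6 arrays, with 3 residual and 6.734 prior degrees of freedom. Tests were two-sided with Benjamini-Hochberg adjustment over all genes, called at an adjusted p under 0.05. SE and the 95% intervals come from the model.

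The members, gene lists and promoter motifs were chosen with earlier results of these data known. Named genes were, in the knockdown comparison, the 12 largest rises and 12 largest falls, the members of the role lists, the KRAB partner genes (the central and the called ones are printed, the rest by range) and the 3 on each side of the threshold; in the others, up to 5 in each direction.

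Whether replicate numbers pair the arrays is not in the labels. The correlations of the replicate 1 minus replicate 2 differences between groups were 0.181 (the mock groups), -0.0568 and 0.0155, which do not settle it. Promoter motifs were searched as exact letters in RefSeq windows. Alternatives were other scalings, filters, probe set rules, controls, thresholds and leaving out each array.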

Additional observations from a re-analysis of the deposited data

How the results depend on the processing

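In the knockdown comparison the 35 called genes became 55 with all 4 mock arrays as the control, 6 with a 2-fold minimum and 15 at an adjusted p under 0.01. Leaving out 1 array at a time gave between 16 and 39. The 38 genes called between induced and knockdown arrays became 5 with a 2-fold minimum and 18 at the stricter p, and between 14 and 50 with 1 array left out, 50 being the count without either not induced array. The median log2 fold change of 0.066 was 0.0955 with each array centred on its median, 0.104 without the probe sets that can share transcripts, and between 0.049 and 0.111 with 1 array left out. No direction of a called gene reversed under the alternatives run. The other fits of the knockdown comparison called 36 (no trend), 41 (centred), 33 (quantile), 33 of 141 (stricter filter), 28 of 135 (without shared probe sets), 28 (only the 4 arrays compared) and 35 (no filter, or the mean of probe sets). The replicate number as a block, a pairing that the labels do not give, gave 37 calls and kept all 35. It left induction at 0 and gave 42 between induced and knockdown arrays. The 45 calls of 138 on chromosome 19 became 27 of 96 without shared probe sets, where 27.8% of all genes were called. They became 25 at the stricter p and 3 with a 2-fold minimum. Leaving out either knockdown array gave fewer calls on chromosome 19, as it did over all genes. Over all alternatives the calls ran from 0 to 5 for the KRAB partners (3 as reported), 0 to 2 for RNA roles (2), 0 to 6 for cofactor complexes (3), 0 to 4 for regulators (3) and 1 to 3 for development (1). The planned classes by protein domain were not run, since no protein sequences were used here.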
